A study of Mus musculus with 12 samples.

Results

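The Fc receptor genes described here are the 6 rows of the deposited count table with the symbols Fcgr1, Fcgr2b, Fcgr3, Fcgr4, Fcer1g and Fcgrt, out of 40847 rows. They were taken by their symbols, and all 6 passed the filter on low counts and were tested. They were measured by mRNA sequencing in mouse fetal liver alveolar-like macrophages (FLAMs), macrophages grown from fetal liver in GM-CSF, the growth factor that alveolar macrophages depend on. All 4 groups, of 3 libraries each, carried GM-CSF at 30 ng/ml. The untreated group had nothing further, the TGFβ group had recombinant human TGFβ1 at 20 ng/ml in its culture medium, the Pam3 group had the synthetic TLR2 ligand Pam3CSK4 at 25 ng/ml for 18 h, and the Pam3+TGFβ group had both. How long TGFβ1 was present, and the strain, age and sex of the embryos, are not given in the sources used here. Nothing there says that the 3 libraries of a group came from separate cultures, so p-values measure only the spread between these libraries, which may be technical.

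Fc receptors bind the constant part of antibodies and so let macrophages take up and answer antibody-coated particles. The activating Fcγ receptors I, III and IV, encoded by Fcgr1, Fcgr3 and Fcgr4, signal through the common γ chain, encoded by Fcer1g, whose ITAM motifs are phosphorylated by Src-family kinases and then recruit the kinase Syk. FcγRIIB, encoded by Fcgr2b, is the inhibitory member, and its ITIM motif recruits the phosphatase SHIP1. FcRn, encoded by Fcgrt, is unlike the others an MHC class I-like protein that pairs with β2-microglobulin inside the cell and rescues IgG and albumin from lysosomes.

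In the GENCODE M39 annotation of GRCm39 all 6 are protein-coding. Fcgr2b (chr1:170786186-170804177, minus strand, 7 exons in the canonical transcript), Fcgr4 (chr1:170846466-170857330, plus strand, 5 exons), Fcgr3 (chr1:170878738-170893549, minus strand, 5 exons) and Fcer1g (chr1:171057141-171062219, minus strand, 5 exons) lie together within 276034 bases. Fcgr1 (chr3:96190225-96201338, minus strand, 6 exons) and Fcgrt (chr7:44742412-44756819, minus strand, 6 exons) lie on other chromosomes.

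Fcgr2b and Fcgr3 resemble each other closely in the exons that encode their antibody-binding domains, and this bears on how far their counts can be separated. Their coding exon 4 is shown on the gene's strand, at chr1:170794015-170794269 and chr1:170881508-170881762 of GRCm39, with the 5 of 255 bases that differ in capitals (98.0% identity).
Fcgr2b: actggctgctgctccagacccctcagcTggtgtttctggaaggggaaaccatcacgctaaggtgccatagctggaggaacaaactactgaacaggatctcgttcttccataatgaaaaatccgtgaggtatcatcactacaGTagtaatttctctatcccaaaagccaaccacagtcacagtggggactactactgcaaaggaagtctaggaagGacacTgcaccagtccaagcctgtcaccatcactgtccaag
Fcgr3: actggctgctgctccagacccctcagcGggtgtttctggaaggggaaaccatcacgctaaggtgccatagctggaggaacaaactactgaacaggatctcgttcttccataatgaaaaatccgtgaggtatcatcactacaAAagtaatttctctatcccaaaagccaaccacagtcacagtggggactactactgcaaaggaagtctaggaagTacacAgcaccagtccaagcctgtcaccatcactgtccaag
Of the windows of 50 bases along the canonical transcripts, 4.95% of those of Fcgr2b and 11.1% of those of Fcgr3 occur exactly in the other gene, against 1.33% and 3.04% at 100 bases and 0 at 150 bases. The other 4 members share no window with any gene at these lengths. How reads that fit both places were counted is not given in the sources used here. Counting Fcgr3, 13.0% of the 50-base windows of Fcgr2b occur in some other gene, and 355 of its exon bases (6.06%) are overlapped on the opposite strand by Gm38204, so part of the Fcgr2b and Fcgr3 counts is uncertain, and how large a part was not measured.

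The regions before the start sites of 2 activating receptor genes are shown because they hold letters that interferon-activated factors are known to bind, while 1 of the genes moved with treatment and the other was not called in any comparison. RefSeq promoters (build GRCm38.p6, 250 bases before to 50 after a start) were found for all 6 members, and each of the 7 entries was placed once on GRCm39. The stretches below leave out annotated exons. Capitals mark a match to the GAS motif (TTCNNNGAA), bound by STAT dimers, in Fcgr1 (chr3:96201339-96201535, minus strand) and to the ISRE motif (GAAA, any 2 bases, GAAA), bound by IRF-containing complexes, in Fcgr4 (chr1:170846245-170846465, plus strand).
Fcgr1: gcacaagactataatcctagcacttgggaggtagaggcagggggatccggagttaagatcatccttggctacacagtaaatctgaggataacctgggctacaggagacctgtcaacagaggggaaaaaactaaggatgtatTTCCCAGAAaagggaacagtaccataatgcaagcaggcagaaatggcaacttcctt
Fcgr4: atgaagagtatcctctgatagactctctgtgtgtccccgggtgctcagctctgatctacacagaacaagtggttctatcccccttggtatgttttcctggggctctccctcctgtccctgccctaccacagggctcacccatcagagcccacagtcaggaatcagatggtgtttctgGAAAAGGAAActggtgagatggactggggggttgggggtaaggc
The GAS match lies 109 bases before the RefSeq start of Fcgr1 and the ISRE match 73 bases before that of Fcgr4. An ETS core (GAGGAA, the kind bound by PU.1) lies, on the opposite strand, 55 bases before the start of Fcgr1, 22 bases before that of Fcgr4 and 6 or 15 bases before the starts of Fcgr3. Fcgr2b holds an ETS-IRF composite (GGAA, any 2 bases, GAAA, here GGAAGTGAAA on the opposite strand) 35 bases before its start. Searched on both strands, the GAS motif occurs in 8.33% of 32544 RefSeq promoters of the same length, the ISRE in 3.45%, the ETS core in 28.1%, the composite in 2.73% and an NF-κB motif (GGGA, any base, TTTCC) in 0.415%. The promoters of Fcer1g and Fcgrt hold none of the 5 motifs, no member holds the NF-κB motif, and no 2 matches overlap. Of the 250 bases before the start, all lie in annotated exons for Fcgr2b, Fcer1g and Fcgrt, and 219 for each Fcgr3 entry. Starts outside the RefSeq entries were not searched. These are matches of letters, not measured binding sites.

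Levels are CPM values on TMM-scaled library sizes. Compared between genes per kilobase of exon, the γ chain gene Fcer1g stood highest in each group, at 535 CPM per kb untreated, followed by Fcgr3 at 199 CPM per kb. Untreated cells had Fcgr4 at 50.2, Fcgr2b at 28.1, Fcgr1 at 23.3 and Fcgrt at 13.3 CPM per kb. No library of a gene reached the range of its neighbour in this order, but the order depends on the exon lengths used. Without them, untreated means were 164 CPM for Fcgr2b, 81.1 for Fcgr1, 65.6 for Fcgrt and 64.2 for Fcgr4. The order of the lower 4 genes moved with treatment. With TGFβ alone, Fcgr1 (26.2 CPM per kb) and Fcgrt (21.7) stood above Fcgr2b (12.6). With Pam3+TGFβ, Fcgr1 (49.1) and Fcgr4 (51.2) overlapped in their libraries.

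The library totals ran from 34036650 to 44374115 counts, and the count of a member in a library from 1154 to 27851. In 3 groups, 1 library stood apart from the other 2 over all genes (untreated replicate 3, TGFβ replicate 2 and Pam3 replicate 1), with a chi-square per degree of freedom of 133 to 220 against 9.99 to 28 for the other pairs. The share of counts in 7 rows that collect ribosomal-type RNA ran from 0.195% to 8.21%, and those 3 libraries were also the ones that differed from their group in it: untreated replicate 3 had 6.19% against 0.288% and 0.351%, TGFβ replicate 2 had 0.195% against 6.22% and 8.21%, and Pam3 replicate 1 had 0.238% against 5% and 7.8%. Calls of members that were lost without these 3 libraries together are named beside their values. All 14 macrophage and alveolar macrophage markers had counts, summing to 11780 to 12460 CPM untreated, 9603 to 10030 with TGFβ, 13480 to 14160 with Pam3 and 10880 to 11090 with Pam3+TGFβ. Siglecf, the alveolar macrophage lectin, had a mean of 32.2 CPM untreated and 300.4 CPM with TGFβ, while the integrin gene Itgam had 1088 and 38.8 CPM and the lipid-binding protein gene Fabp4 31.1 and 0.132 CPM.

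**Figure D1:**
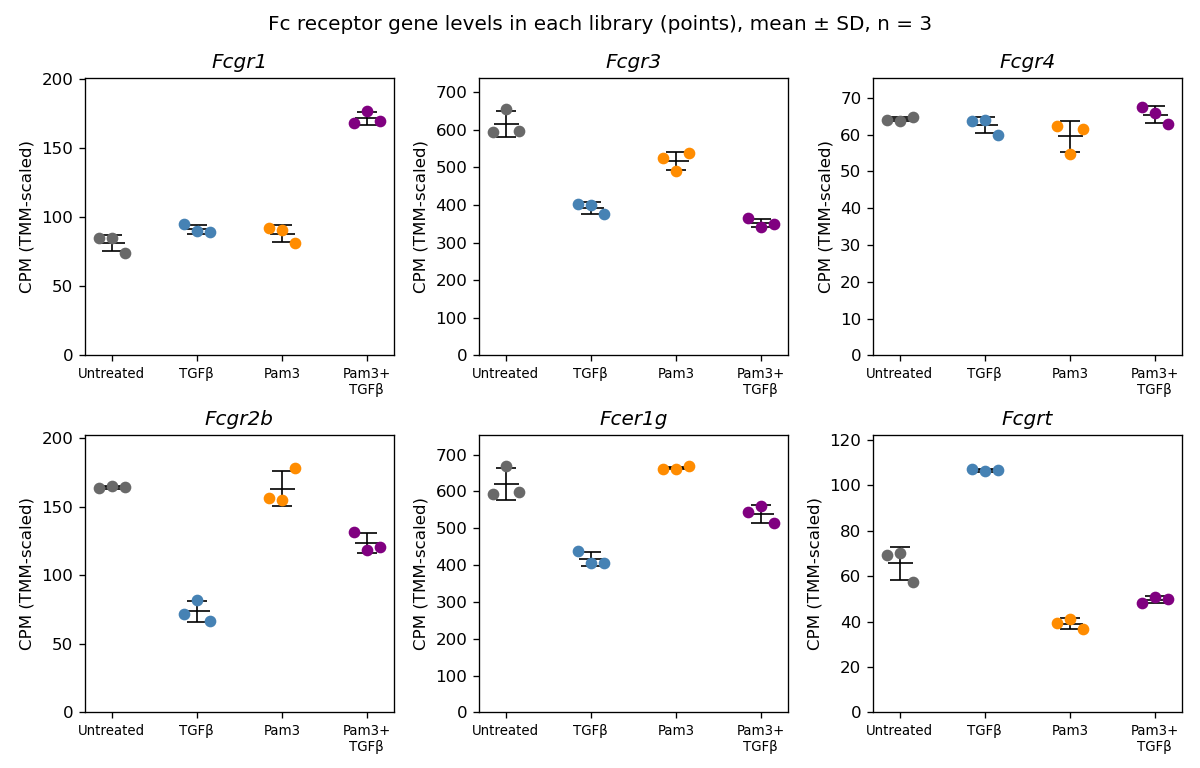
Levels of the 6 Fc receptor genes in CPM (TMM-scaled, each axis from 0) in every library of the 4 groups, with mean and SD (n = 3). Fcgr1 stands apart in Pam3+TGFβ, Fcgr2b, Fcgr3 and Fcer1g are lower with TGFβ, Fcgr4 is near 60 in all groups, and Fcgrt is high with TGFβ and low with Pam3.

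Whether TGFβ and TLR2 activation alter each gene was tested with 6 contrasts of edgeR's quasi-likelihood test, fitted across all genes, and every adjusted p below is Benjamini-Hochberg adjusted over 14749 tested genes. With TGFβ alone, 5 of the 6 members changed, in a comparison that called 51.0% of all tested genes: 2 were higher (22.9% of all genes) and 3 lower (28.1%). With TGFβ in Pam3-treated cells, 5 changed against 45.3% of all genes, with 2 higher (21.5%) and 3 lower (23.8%). Pam3 without TGFβ changed 2 members, both lower, against 18.3% of all genes (9.62% higher, 8.66% lower). Pam3 with TGFβ changed 5 against 38.5%, with 3 higher (20.4%) and 2 lower (18.1%), and upper-quartile scaling split the calls over all genes as 2477 higher and 3489 lower in place of 3008 and 2670. The interaction, the amount by which TGFβ changed the Pam3 response, was called for 4 members against 15.9% of all genes, with 3 positive (10.3% of all genes) and 1 negative (5.67%). Pam3+TGFβ against untreated cells changed 5 against 52.1%, with 1 higher (25.0%) and 4 lower (27.2%). These contrasts share libraries and are not independent of each other. The libraries are bulk RNA, in which fewer cells of a type and less RNA per cell cannot be told apart.

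Fcgr1, which encodes the high-affinity IgG receptor FcγRI, was near its untreated level with either agent alone and rose 2.11-fold with both. Its level was 84.6, 84.6 and 74.2 CPM in the untreated libraries, 94.97, 90.2 and 88.8 CPM with TGFβ, 91.9, 90.9 and 81.4 CPM with Pam3, and 168, 177 and 169 CPM with Pam3+TGFβ. The Pam3+TGFβ libraries lay far above all others, the TGFβ libraries lay just above the untreated ones, and the Pam3 libraries overlapped with both. Pam3 with TGFβ raised Fcgr1 1.88-fold (log2 0.91, SE 0.0583, adjusted p 1.70e-12). The Pam3 response without TGFβ was 0.12 (95% interval 0.00 to 0.24, adjusted p 0.185), 0.06 without untreated replicate 3 and 0.03 without the 3 libraries that stand apart (adjusted p 0.866). The difference between these responses was 0.79 on the log2 scale (SE 0.0824, adjusted p 7.40e-08). The change with both agents against untreated cells was 1.08 on the log2 scale (adjusted p 3.10e-14).

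The TGFβ effect on Fcgr1 was likewise small in resting cells and large in Pam3-treated ones. It was 0.96 with Pam3 (SE 0.0584, adjusted p 4.45e-13), and 0.17 without Pam3 (SE 0.0585, adjusted p 0.0175). The smaller effect rests on 1 untreated library: without untreated replicate 3 it was 0.11 (adjusted p 0.117), and without the 3 libraries that stand apart it was 0.13 (adjusted p 0.123).

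Fcgr3, which encodes the activating low-affinity receptor FcγRIII, fell with each agent, both in the absence and in the presence of the other. Its level was 594, 654 and 597 CPM untreated, 402, 400.1 and 375 CPM with TGFβ, 523, 489.5 and 537 CPM with Pam3, and 364, 342 and 349.5 CPM with Pam3+TGFβ. No group overlapped with another, and the order from high to low was untreated, Pam3, TGFβ, Pam3+TGFβ. With TGFβ it fell by 36.2% in resting cells (log2 -0.65, SE 0.0522, adjusted p 8.16e-11) and fell by 31.9% in Pam3-treated cells (log2 -0.55, SE 0.0521, adjusted p 1.88e-09). With Pam3 it fell by 16.0% in cells without TGFβ (log2 -0.25, SE 0.052, adjusted p 0.000898) and fell by 10.3% in cells with TGFβ (log2 -0.16, SE 0.052, adjusted p 0.0182). The interaction was 0.09 with a 95% interval of -0.06 to 0.25 (adjusted p 0.467). Between untreated and Pam3+TGFβ cells Fcgr3 fell by 42.8% (log2 -0.81, adjusted p 1.09e-12).

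Fcgr4, which encodes the activating receptor FcγRIV, was not called in any of the 6 comparisons. Its levels ran from 63.7 to 64.8 CPM untreated, from 60.1 to 64.0 CPM with TGFβ, from 54.7 to 62.5 CPM with Pam3 and from 63.0 to 67.6 CPM with Pam3+TGFβ. The Pam3 libraries lay below those of the untreated and of the Pam3+TGFβ cells without overlap, and the remaining pairs of groups overlapped. Its 95% intervals were -0.16 to 0.09 for TGFβ alone, -0.23 to 0.01 for Pam3 alone and -0.09 to 0.15 for both against untreated, all on the log2 scale. The TGFβ effect in Pam3-treated cells was 0.14 (SE 0.0595, adjusted p 0.0656) and passed the threshold in 7 of 22 alternative settings, among them DESeq2 (0.15, adjusted p 0.0425).

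Fcer1g, the γ chain gene that all 3 activating receptors need, fell with TGFβ, and Pam3 raised it in TGFβ-treated cells. Its level was 592, 670.1 and 597 CPM untreated, 439, 406 and 406 CPM with TGFβ, 661, 661 and 668 CPM with Pam3, and 545, 561 and 513 CPM with Pam3+TGFβ. The TGFβ libraries were lowest, the Pam3+TGFβ libraries lay between them and the untreated ones, and the Pam3 libraries overlapped with the untreated ones. With TGFβ, Fcer1g fell by 32.7% in resting cells (log2 -0.57, SE 0.0545, adjusted p 1.98e-09) and fell by 18.7% in Pam3-treated cells (log2 -0.30, SE 0.0543, adjusted p 6.05e-05). Pam3 raised it 1.29-fold with TGFβ (log2 0.37, adjusted p 3.85e-06), against 0.10 without TGFβ (95% interval -0.01 to 0.21, adjusted p 0.243).

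The Fcer1g interaction of 0.27 (SE 0.0768, adjusted p 0.0139) was close to the threshold. It lost its call without TGFβ replicate 2 (0.24, adjusted p 0.0506), TGFβ replicate 3 (0.23, adjusted p 0.0649), Pam3+TGFβ replicate 1 (0.24, adjusted p 0.0514) or Pam3+TGFβ replicate 2 (0.23, adjusted p 0.0567). The Pam3 response without TGFβ was called when untreated replicate 2, the highest untreated library, was left out (0.16, adjusted p 0.0222).

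The γ chain gene was also set against the receptor genes that depend on it. Per kilobase, Fcer1g stood at 1.96 ± 0.0566 times the summed Fcgr1, Fcgr3 and Fcgr4 in untreated cells (SD, n = 3), 1.78 ± 0.0645 times with TGFβ, 2.40 ± 0.0989 times with Pam3 and 2.18 ± 0.0914 times with Pam3+TGFβ. The libraries with Pam3 lay at 2.1 to 2.51, above all those without it at 1.71 to 2.03. Without the length correction the same ratios were 0.815, 0.764, 1.00 and 0.917, in the same order.

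Fcgr2b, the gene of the inhibitory receptor FcγRIIB, was lowest with TGFβ alone and intermediate with Pam3+TGFβ. Its level was 163, 166 and 164 CPM untreated, 72.1, 82.0 and 66.9 CPM with TGFβ, 157, 155 and 178 CPM with Pam3, and 132, 119 and 121 CPM with Pam3+TGFβ. The TGFβ libraries were lowest and the Pam3+TGFβ libraries intermediate, with no overlap, while the untreated libraries lay within the range of the Pam3 ones. With TGFβ, Fcgr2b fell by 55.2% in resting cells (log2 -1.16, SE 0.0659, adjusted p 6.37e-13) and fell by 24.2% in Pam3-treated cells (log2 -0.40, SE 0.0648, adjusted p 1.96e-05). Pam3 raised it 1.68-fold in the presence of TGFβ (log2 0.75, SE 0.0657, adjusted p 2.53e-09).

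Without TGFβ, the Pam3 response of Fcgr2b was -0.01 on the log2 scale (95% interval -0.14 to 0.12, adjusted p 0.944). The interaction was 0.76 (SE 0.0920, adjusted p 1.70e-06), and between untreated and Pam3+TGFβ cells Fcgr2b fell by 24.7% (log2 -0.41, adjusted p 1.14e-05). Set beside each other, Fcgr1 and Fcgr2b both had a positive interaction, on top of a TGFβ effect in resting cells of 0.17 for Fcgr1 and -1.16 for Fcgr2b.

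Fcgrt, the gene of the IgG-recycling receptor FcRn, moved in opposite directions with the agents. Its level was 69.2, 70.3 and 57.2 CPM untreated, 107.3, 106.1 and 106.5 CPM with TGFβ, 39.2, 41.3 and 36.7 CPM with Pam3, and 48.2, 50.8 and 50.1 CPM with Pam3+TGFβ. No group overlapped with another, the TGFβ libraries were highest and the Pam3 libraries lowest. TGFβ raised it 1.63-fold in resting cells (log2 0.70, SE 0.0669, adjusted p 2.08e-09) and 1.27-fold in Pam3-treated cells (log2 0.35, SE 0.0686, adjusted p 0.000163). With Pam3 it fell by 40.4% in cells without TGFβ (log2 -0.75, SE 0.0684, adjusted p 8.06e-09) and fell by 53.4% in cells with TGFβ (log2 -1.10, SE 0.0677, adjusted p 6.95e-13).

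Between untreated and Pam3+TGFβ cells Fcgrt fell by 24.3% (log2 -0.40, adjusted p 1.78e-05). Its interaction of -0.35 (SE 0.0956, adjusted p 0.0107) lost its call without Pam3 replicate 2 (-0.30, adjusted p 0.0525) and without the 3 libraries that stand apart (-0.28, adjusted p 0.065).

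**Figure D2:**
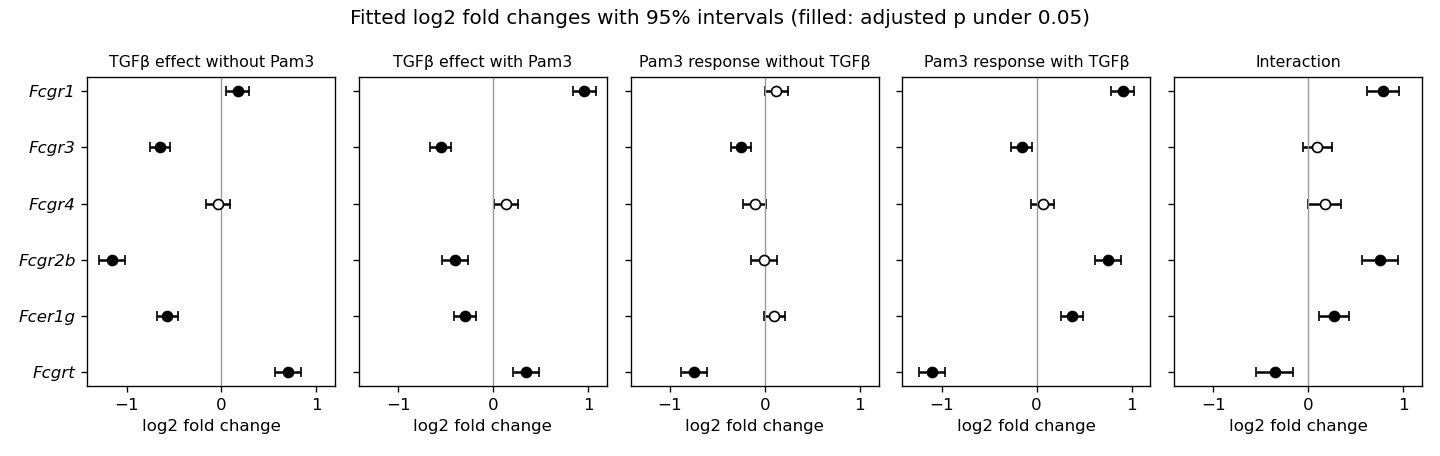
Fitted log2 fold changes of the 6 members (points) with 95% intervals in 4 comparisons and the interaction; filled points have an adjusted p under 0.05. Fcgr1 is near 1 in both comparisons that end in Pam3+TGFβ, Fcgr2b is lowest with TGFβ alone, and Fcgr4 lies near 0 in each panel.

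The balance of activating over inhibitory receptor transcripts followed from these changes and is given per kilobase as log2 ratios over Fcgr2b in each library, as a description with no test. Fcgr1 over Fcgr2b was -0.28 ± 0.109 untreated (SD, n = 3), 1.06 ± 0.154 with TGFβ, -0.14 ± 0.208 with Pam3 and 1.22 ± 0.115 with Pam3+TGFβ. The 6 libraries with TGFβ lay above the 6 without it. Fcgr4 over Fcgr2b was 0.84 ± 0.018 untreated, 1.96 ± 0.111 with TGFβ, 0.74 ± 0.113 with Pam3 and 1.28 ± 0.059 with Pam3+TGFβ, again higher in each library with TGFβ. Fcgr3 over Fcgr2b behaved otherwise: it was 2.82 ± 0.069 untreated, 3.34 ± 0.113 with TGFβ, 2.59 ± 0.075 with Pam3 and 2.43 ± 0.037 with Pam3+TGFβ, which is highest with TGFβ alone and lowest with both agents, with no overlap between the TGFβ libraries and any other group.

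As a share of the 4 Fcγ receptor genes per kilobase, Fcgr3 held 66.2% untreated, 59.1% with TGFβ, 62.6% with Pam3 and 48.4% with Pam3+TGFβ (means of 3 libraries, no test). Fcgr1 had 7.74%, 12.2%, 9.48% and 20.9% in the same order, Fcgr4 16.7%, 22.8%, 17.4% and 21.8%, and Fcgr2b 9.35%, 5.86%, 10.5% and 8.99%. The share of Fcgr2b was lowest with TGFβ alone, and with both agents Fcgr1 held close to the share of Fcgr4. Shares and orders between genes depend on the exon lengths used: without them, Fcgr1 had 171 CPM and Fcgr4 65.5 CPM with both agents.

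**Figure D3:**
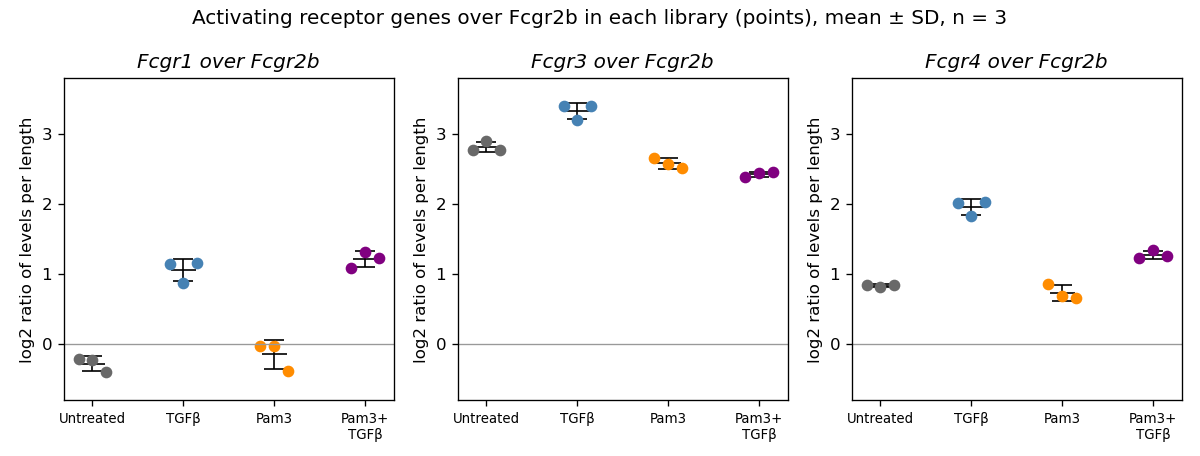
Log2 ratio of the per-kilobase level of each activating receptor gene over Fcgr2b in every library, with mean and SD (n = 3); the line at 0 marks equal levels. Fcgr1 and Fcgr4 are higher relative to Fcgr2b in the libraries with TGFβ, while Fcgr3 is highest with TGFβ alone.

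The kinases and adaptors that act downstream of the γ chain were followed in a list of 40 genes of ITAM signalling, of which 39 were tested (Amph was without counts). With TGFβ alone, 5 were higher (22.9% of all tested genes were), 23 lower (28.1%) and 11 not called, with a median log2 change of -0.24. With TGFβ in Pam3-treated cells, 11 were higher (21.5% of all genes) and 19 lower (23.8%), with a median of -0.10. Pam3 raised 13 (9.62%) and lowered 2 (8.66%) without TGFβ, with a median of 0.04, and raised 16 (20.4%) and lowered 5 (18.1%) with TGFβ, with a median of 0.10. The interaction was positive for 13 (10.3%), negative for 2 (5.67%) and not called for 24, with a median of 0.10. Over all tested genes the medians of these 5 comparisons lay between -0.02 and 0.01. Without the 3 libraries that stand apart, Pam3 alone raised 8 and lowered 1, DESeq2 called 4 lower, and without Pam3 replicate 2 the interaction was negative for 1. The list was chosen with results of these data known, and no test of the list was made.

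Syk, the kinase that binds the phosphorylated γ chain, had means of 779 CPM untreated, 558 CPM with TGFβ, 1122 CPM with Pam3 and 1269 CPM with Pam3+TGFβ. It fell with TGFβ alone (log2 -0.48, adjusted p 3.22e-08), and its Pam3 response was larger with TGFβ (1.19) than without (0.53), an interaction of 0.66 (SE 0.0758, adjusted p 3.65e-07). Lyn, a Src-family kinase that phosphorylates both ITAMs and ITIMs, had 421, 329.8, 465 and 411 CPM in the same order and an interaction of 0.17 (adjusted p 0.0599) that passed the threshold with DESeq2 (adjusted p 0.00512). Syk, like Fcer1g, was lower with TGFβ alone and rose with Pam3 in TGFβ-treated cells, but in Pam3-treated cells TGFβ raised Syk (log2 0.18, adjusted p 0.00848), a call lost without Pam3+TGFβ replicate 1 (adjusted p 0.0533), and lowered Fcer1g.

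Src, the founding kinase of the family, rose from 3.77 to 18.2 CPM between untreated and Pam3+TGFβ cells (log2 2.26, adjusted p 2.92e-14). Blnk, an adaptor of Syk, had 12.2 CPM untreated, 0.306 CPM with TGFβ, 19.3 CPM with Pam3 and 2.63 CPM with Pam3+TGFβ, with an interaction of 2.43 (adjusted p 6.72e-07) that starts from 16, 16 and 3 counts in the TGFβ libraries. Sphk1, a sphingosine kinase, had 128, 167 and 97 counts in the untreated libraries and 1, 0 and 0 with TGFβ. Plcg1, a phospholipase C, was the list's gene with the largest rise with TGFβ alone (24.9 to 41.0 CPM, log2 0.72, adjusted p 1.28e-08), and it fell with Pam3 in those cells (log2 -0.70, adjusted p 3.11e-08). Dock2, an activator of Rac, fell with Pam3 alone from 513 to 426 CPM (log2 -0.27, adjusted p 4.82e-05).

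Inhibitors of this signalling were followed in a list of 20 phosphatases, adaptors and inhibitory receptors, all tested. Over all tested genes the medians lay between -0.02 and 0.01, as for the ITAM list. With TGFβ alone, 5 were higher (22.9% of all genes), 14 lower (28.1%) and 1 not called (median -0.16), and with TGFβ in Pam3-treated cells 5 were higher (21.5%) and 12 lower (23.8%), with a median of -0.19. Pam3 raised 9 of them without TGFβ (9.62%), with 11 not called (median 0.14), and raised 14 (20.4%) and lowered 2 (18.1%) with TGFβ (median 0.28). The interaction was positive for 4 (10.3%) and negative for 3 (5.67%), with a median of 0.05. It was negative for 1 without untreated replicate 3, Pam3 replicate 2 or Pam3 replicate 3, and with ribosomal-type RNA as a covariate. Upper-quartile scaling gave 4 lower in place of 2 for Pam3 with TGFβ.

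Inpp5d, which encodes SHIP1, the phosphatase recruited by FcγRIIB, had 271, 240.0, 267 and 231 CPM in untreated, TGFβ, Pam3 and Pam3+TGFβ cells. On the log2 scale it fell by 0.17 with TGFβ in resting cells (adjusted p 0.00074) and fell by 0.21 in Pam3-treated cells (adjusted p 9.99e-05). Ptpn6, which encodes the phosphatase SHP-1, had 520.0, 475, 555 and 491 CPM, and its TGFβ effect of -0.13 without Pam3 (adjusted p 0.0378) lost its call in 13 of 22 alternatives, among them upper-quartile scaling (-0.10, adjusted p 0.116) and the fit without untreated replicate 2 (-0.06, adjusted p 0.287). The inhibitory lectins moved far more. Clec12a had 102 CPM untreated, 4.04 CPM with TGFβ, 128 CPM with Pam3 and 8.81 CPM with Pam3+TGFβ (TGFβ alone, log2 -4.66, adjusted p 1.28e-11). Siglece rose with each agent, from 38.1 CPM untreated to 194 CPM with TGFβ, 112 CPM with Pam3 and 309 CPM with Pam3+TGFβ (both against untreated, log2 3.02, adjusted p 1.04e-18). Its interaction was -0.88 (adjusted p 6.04e-07), and Dok3, an adaptor that dampens ITAM signals, fell with Pam3 in TGFβ-treated cells (133 to 108 CPM, log2 -0.29, adjusted p 5.24e-05).

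The last list held 25 relatives, partners and adaptors, of which 17 were tested. The 8 untested genes, Fcer1a, Ms4a2, Fcrl5, Fcrl6, Fcmr, Fcamr, Pigr and Oscar, had at most 14 counts in a library. They include the α and β chains of the IgE receptor and the receptors for IgM and polymeric immunoglobulin. With TGFβ alone, 2 were higher (22.9% of all genes) and 10 lower (28.1%), with a median of -0.47, and with TGFβ in Pam3-treated cells 4 were higher (21.5%) and 6 lower (23.8%), with a median of -0.31. Pam3 raised 8 (9.62%) and lowered 1 (8.66%) without TGFβ (median 0.19), and raised 10 (20.4%) and lowered 3 (18.1%) with TGFβ (median 0.66). The interaction was positive for 6 (10.3%) and not called for 11 (median 0.39), and without TGFβ replicate 1 it was also negative for 1. Without the genes at 3 counts or fewer in every library of a group, the medians were -0.41, -0.03, 0.16, 0.57 and 0.30.

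B2m, the partner of FcRn and of MHC class I, did not follow Fcgrt. It had 960.0 CPM untreated, 693 CPM with TGFβ, 1093 CPM with Pam3 and 1096 CPM with Pam3+TGFβ, so that it fell with TGFβ alone (log2 -0.47, SE 0.0584, adjusted p 2.04e-07) where Fcgrt rose. Pam3 raised B2m in TGFβ-treated cells (log2 0.66, adjusted p 8.97e-10) where it lowered Fcgrt, and the B2m interaction was 0.47 (adjusted p 0.000144) against -0.35 for Fcgrt. Trim21, the cytosolic antibody receptor, had 18.1, 19.2, 26.3 and 57.8 CPM and an interaction of 1.05 (SE 0.111, adjusted p 8.68e-08). Like Fcgr1, it was near its untreated level with TGFβ alone (log2 0.09, adjusted p 0.398) and highest with both agents, but it also rose with Pam3 alone (log2 0.54, adjusted p 1.60e-05).

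Tyrobp, which encodes DAP12, the other main ITAM adaptor of macrophages, fell with TGFβ alone (671 to 561 CPM, log2 -0.26, adjusted p 0.00035) and in Pam3-treated cells (658 to 512 CPM, log2 -0.36, adjusted p 6.12e-06). Its Pam3 response with TGFβ was -0.13 (adjusted p 0.0668), against 0.37 for Fcer1g. It was called lower in 9 of 22 alternatives, among them DESeq2 (-0.13, adjusted p 0.03), upper-quartile scaling (-0.19, adjusted p 0.00749) and the fit without the 3 libraries that stand apart (-0.15, adjusted p 0.0412). Of the receptors that use these adaptors, Clec4e, which encodes the γ chain-coupled lectin Mincle, had 113 CPM untreated, 19.3 CPM with TGFβ, 288 CPM with Pam3 and 282 CPM with Pam3+TGFβ, an interaction of 2.52 (SE 0.199, adjusted p 1.92e-05). Of the DAP12-coupled receptors, Trem1 rose with TGFβ alone from 46.9 to 129.6 CPM (log2 1.47, adjusted p 1.01e-14). Trem2 fell with Pam3 alone from 94.5 to 57.0 CPM (log2 -0.73, adjusted p 2.14e-09). Fcrlb, an intracellular Fc receptor-like protein gene, rose from 4.18 CPM untreated to 25.2 CPM with both (log2 2.59, adjusted p 2.73e-11). Cd247, which encodes the ζ chain, another ITAM adaptor, had 22, 16 and 11 counts with Pam3 and 95, 85 and 91 with Pam3+TGFβ (TGFβ with Pam3, log2 2.38, adjusted p 4.30e-05). Gp6, a γ chain-coupled collagen receptor gene, had 0, 1 and 0 counts untreated and 16, 12 and 12 with Pam3 (adjusted p 0.00126). Hcst, which encodes the adaptor DAP10, fell with Pam3 in TGFβ-treated cells from 3.33 to 2.12 CPM (log2 -0.65, adjusted p 0.0245), a call lost without TGFβ replicate 1 (-0.39, adjusted p 0.234), Pam3+TGFβ replicate 1 (adjusted p 0.0641) or Pam3+TGFβ replicate 2 (adjusted p 0.0693). Fcrls, a macrophage Fc receptor-like gene, had 122, 105 and 129 counts untreated, 0, 4 and 3 with TGFβ and 0 in each Pam3+TGFβ library.

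**Figure D4:**
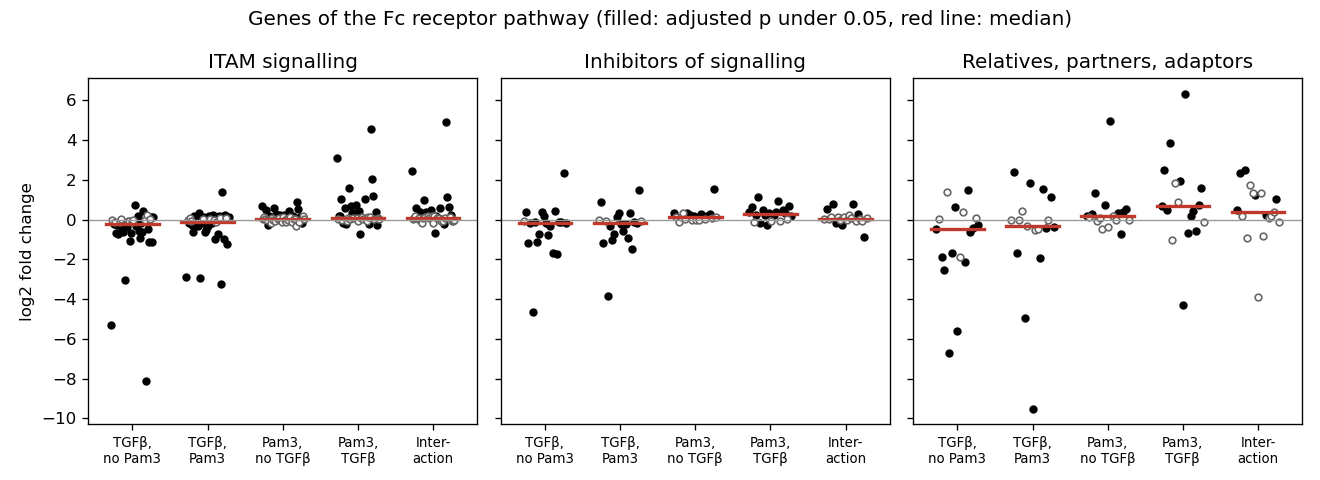
Log2 fold changes of the tested genes of 3 lists (39 of ITAM signalling, 20 inhibitors, 17 relatives, partners and adaptors) in 4 comparisons and the interaction; filled points have an adjusted p under 0.05 and the red line is the median. The medians lie below 0 in the TGFβ comparisons and at or above 0 in the Pam3 comparisons, and points beyond about 5 are genes near 0 counts in a group.

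Genes with a pattern like that of each member were sought among 8464 genes with a mean of at least 10 CPM, by the root mean square difference of centred log2 CPM over the 12 libraries. Fcgr1 was most like Psmb8, an immunoproteasome subunit gene, at 0.0941, with Mafk at 0.101 and Uba7, the ISG15-activating enzyme gene, at 0.102, so 1 gene lay within 0.1. Psmb8 had 53.0 CPM untreated, 57.5 CPM with TGFβ, 61.9 CPM with Pam3 and 102 CPM with Pam3+TGFβ. Fcgr2b was most like Il10rb, a receptor chain gene for IL-10 family cytokines, at 0.074 (82.4, 36.1, 85.1 and 59.8 CPM), then Ddhd1 at 0.105 and Dcun1d3 at 0.106. Fcgrt was most like Lpin1, a phosphatidate phosphatase gene, at 0.0955 (95.7, 165, 60.8 and 71.0 CPM), then Cytip at 0.109 and Tcf19 at 0.157.

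The patterns of the other members were shared by more genes. Within 0.1 lay 43 genes for Fcgr3, led by Qpctl at 0.0685, Abhd4 at 0.0698 and Idh3b at 0.0701, and 111 for Fcer1g, led by P2ry14 at 0.0411, Eml2 at 0.0448 and Capg at 0.051. For Fcgr4, which hardly varied, there were 505, led by Ccar1 at 0.0452, Prpf6 at 0.0502 and Upf1 at 0.0505. These values describe likeness over the same 12 libraries and carry no test.

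Other cells that carry Fc receptors left little signal. The 9 mast cell and basophil markers summed to at most 1.87 CPM in a library, with Fcer1a at 0 in all 12, and 0 to 0.148 CPM in the TGFβ libraries. The NK and T cell markers summed to at most 1.26 CPM, with Ncr1 and Cd3e at 0 in all 12, and the B cell markers to at most 0.524 CPM, with Pax5 at 0 in all 12. The 9 neutrophil markers summed to 13.9 to 16.0 CPM untreated, 4.58 to 6.12 CPM with TGFβ, 16.8 to 17.4 CPM with Pam3 and 5.96 to 7.90 CPM with Pam3+TGFβ, most of it S100a8, with Mpo and Retnlg at 0 in all 12. The 7 dendritic cell markers summed to 16.8 to 25.1 CPM, most of it Clec9a. The S100a8 signal and the sum of the macrophage markers were lower with TGFβ, as Fcgr2b, Fcgr3 and Fcer1g were, although Siglecf, Pparg, Car4 and Chil3 of that list had higher means with TGFβ (Chil3 2954 CPM untreated and 5038 CPM with TGFβ), and their part in those results was not tested.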

How the data were processed

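Per the submitters' processing notes, reads were aligned to GRCm39 with Bowtie2 2.4.1 and counted with featureCounts of Subread 2.0.0. Which annotation and strand setting were used, and what became of reads with several matches, is not given in the sources used here. Since Bowtie2 makes no spliced alignments, reads across exon junctions can be lost. The read length is uncertain, since the stated format and the stated kit differ. The deposited count table gives whole reads for each gene symbol. The authors also deposited a normalized signal, in which each count is divided by 1 constant per library.

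The 40847 rows (17090 without a count) were filtered with filterByExpr at a minimum count of 10, which left 14749 genes. Counts were scaled with TMM and tested with the quasi-likelihood F test (robust) of edgeR 4.0.16 under R 4.3.3 (4 group means, 12 libraries, no replicate block) at a Benjamini-Hochberg adjusted p of 0.05. Levels are mean ± SD of CPM, and the per-kilobase levels use the union of GENCODE exons. Library totals ran from 34036650 counts upwards, and the reads carry no molecular identifiers.

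The 6 members and the 3 pathway lists were chosen with earlier results of these data known, as were the tests. The text names all members in the 6 comparisons, 8 fixed list genes (1 of them, and 1 cell marker, are not reported here), the called list genes with the largest rise and fall per comparison with at least 10 counts in each library of the higher group, and the 3 genes most like each member. Alternatives were DESeq2-type size factors, upper-quartile scaling, DESeq2 1.42.0, limma-trend of limma 3.58.1 on log2 of the normalized values plus 1, a replicate block, no filter, a minimum of 10 counts in every library, fits of only the groups compared, and each library left out. Fits without the 3 libraries that stand apart, fits with ribosomal-type RNA as a covariate, and ratios without a length correction were added after seeing the data. Tested on simulated counts with 197 of 14440 genes changed by 1 on the log2 scale, the interaction test recovered 76.1%, and 8 of its 158 calls were unchanged genes. Gene positions were matched by symbol to GENCODE M39 for 32481 rows.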

Additional observations from a re-analysis of the deposited data

Results flagged for a closer look

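The Pam3 response differed with and without TGFβ, by the interaction test of edgeR with adjustment over all tested genes, for 4 members and for several genes of the pathway lists. Among the members the difference was 0.79 for Fcgr1, 0.76 for Fcgr2b, 0.27 for Fcer1g and -0.35 for Fcgrt on the log2 scale, in a test that called 15.9% of all genes. Fcgr1 and Fcgr2b kept their call in all 21 alternatives, Fcer1g in 17 and Fcgrt in 19.

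Among the pathway genes reported for this contrast, the difference was positive for Clec4e (2.52), Blnk (2.43), Trim21 (1.05), Clec12a (0.80), Syk (0.66) and B2m (0.47), and negative for Siglece (-0.88) and Plcg1 (-0.68). The text names Src, Fcrlb, Cd247, Dok3 and Sphk1 for other contrasts. They also had a called interaction, negative for Dok3 and positive for the others. Dok3 lost that call at least without untreated replicate 3, Pam3 replicate 2 or Pam3 replicate 3, and with ribosomal-type RNA as a covariate. The remaining alternatives were not followed for Dok3 in this contrast. Clec12a lost its call without TGFβ replicate 2 (0.76, adjusted p 0.0502) and without the 3 libraries that stand apart (0.77, adjusted p 0.106).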

How the results depend on the processing

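Each of the 36 member values was recomputed under 21 or 22 alternatives, and 764 of the 786 recomputed values kept their direction and their side of the threshold, while 8 lost a call, 8 gained one and 6 changed sign. The changes of sign are all in values that were not called. Fcgr2b with Pam3 alone ran from -0.0773 to 0.0256 over the left-out libraries, and was 0.0186 without the 3 libraries that stand apart and 0.00886 with ribosomal-type RNA as a covariate. Fcgr4 ran from -0.039 to 0.0161 for TGFβ alone over the left-out libraries and was -0.00213 for both agents with upper-quartile scaling. Of 1780 values of named pathway genes, 1728 stayed the same by this measure and 8 changed sign: B2m for TGFβ with Pam3 (-0.0101 with upper-quartile scaling, -0.00847 with the covariate, -0.0368 to 0.0353 over the left-out libraries), Tyrobp with Pam3 alone (-0.0833 to 0.0426 over the left-out libraries), Inpp5d with Pam3 alone (-0.0397 to 0.00589, likewise), Lyn with both agents (-0.0509 to 0.00291, likewise) and Ptpn6 for Pam3 with TGFβ (-0.0151 with upper-quartile scaling). The counts of called members and of all called genes stayed within 1.5 times in each alternative. Upper-quartile scaling split the calls for Pam3 with TGFβ as 2477 higher and 3489 lower (main 3008 and 2670) and those of the interaction as 1255 and 1097 (main 1516 and 836).

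No clear pairing by replicate number was seen. Libraries of the same number in different groups correlated at -0.174 to 0.3 in their deviations (median 0.0614, 18 pairs). Those of different numbers correlated at -0.397 to 0.323 (median -0.0578, 36 pairs), and 5 of 12 libraries matched their own number best. With 3 libraries a group, these values cannot decide whether the libraries were paired. A replicate block gave 2751, 5714, 7562, 6736, 2393 and 7676 called genes (main 2697, 5678, 7518, 6679, 2352 and 7691) for Pam3 without and with TGFβ, TGFβ without and with Pam3, the interaction and both agents.

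Without a length correction, which shifts each ratio by a constant, the log2 ratio over Fcgr2b for untreated, TGFβ, Pam3 and Pam3+TGFβ cells was -1.02, 0.32, -0.89 and 0.47 for Fcgr1, 1.9, 2.42, 1.66 and 1.51 for Fcgr3, and -1.36, -0.23, -1.45 and -0.92 for Fcgr4, so the order of the groups is unchanged while the position relative to 0 depends on the lengths used. With 3 libraries a group, the Fcgr4 interaction of 0.17 (SE 0.084, adjusted p 0.193) was not called, and its 95% interval runs up to 0.35.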
